A study of Mus musculus with 2 samples.

Results

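The *S100a* genes encode small calcium-binding proteins of the S100 family, and 10 of them were followed here through the circumvallate papillae (CvP) and the epithelium without papillae (Epi) of the mouse tongue. They were taken by gene symbol as *S100a1*, *S100a3*, *S100a4*, *S100a6*, *S100a8*, *S100a9*, *S100a10*, *S100a11*, *S100a14* and *S100a16*, and each had 1 row among the 18498 rows of the expression table. Another 6 S100 genes with a row (*S100a2*, *S100a7a*, *S100a13*, *S100b*, *S100g* and *S100z*) were set beside them, and *S100a5* was not analysed here. Both tissues came from male C57BL/6J mice of 12 to 30 weeks on normal chow, and RNA of at least 20 mice was pooled for each tissue into 1 poly(A) library. With 1 library per tissue there was no replicate and no test, and every difference below is one between these 2 libraries. Levels are RPKM, reads per kilobase of exon model, scaled to 1000000 mapped reads. From the smallest steps between values the libraries held about 28380300 (CvP) and 27914600 (Epi) mapped reads. Each ratio is given with a 95% interval (Clopper-Pearson, exact) from the reads behind it. These intervals hold only the error of counting reads, not the spread between mice.

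S100 proteins carry a pair of EF hands, helix-loop-helix motifs whose loops bind calcium, and they usually act as dimers that dock on other proteins once calcium is bound. Most of their genes lie side by side with the genes of the cornified envelope, the hard shell of terminally differentiated keratinocytes. S100A8 and S100A9 together form calprotectin, an antimicrobial protein that neutrophils store and that stressed keratinocytes can also make. In stratified epithelia such as that of the tongue, the other members are known from calcium signalling, membrane repair and the turnover from basal to upper layers.

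The family shares a loop that can be read in the coding sequence. In the longest coding transcript of GENCODE M1 the 10 genes have 89 to 124 codons, and a scan for a loop of 12 codons with aspartate at codon 1, aspartate, asparagine or serine at codons 3 and 5 and glutamate at codon 12 found 1 match in each of 8 members. These positions are those of calcium ligands in the canonical EF hand. No match was found in *S100a10* or *S100a14*. The matches of 7 members are shown because they are the stretch the family has in common, with codons 1, 3, 5 and 12 in capitals and positions on NCBI37/mm9, all within coding exons.
S100a1 (chr3:90315206-90315241, minus strand): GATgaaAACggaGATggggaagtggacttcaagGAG
S100a3 (chr3:90406158-90406193, plus strand): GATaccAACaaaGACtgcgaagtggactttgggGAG
S100a4 (chr3:90409707-90409742, plus strand): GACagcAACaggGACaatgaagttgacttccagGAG
S100a6 (chr3:90418155-90418190, plus strand): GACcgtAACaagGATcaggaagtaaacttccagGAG
S100a8 (chr3:90473794-90473829, plus strand): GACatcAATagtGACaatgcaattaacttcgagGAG
S100a9 (chr3:90496773-90496808, minus strand): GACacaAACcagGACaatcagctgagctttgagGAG
S100a16 (chr3:90346332-90346367, plus strand): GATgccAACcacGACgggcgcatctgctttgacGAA

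Whole coding sequences were then compared. Over the 45 pairs the identity of aligned coding bases ran from 52.6% to 68.7%, with a median of 59.2%, and the closest pair was *S100a4* and *S100a6*. None of the pairs reached 97%. A gene with close copies outside the family was *S100a11*, whose transcript has 2 near copies elsewhere in the genome (502 aligned bases each, at 98.6% and 98.2% identity). How reads shared with them were counted is not given in the sources used here, so the level of *S100a11* is uncertain. The other 9 transcripts had no alignment of at least 75 bases at 97% identity or more outside their own gene. A stretch this close within a longer, less similar alignment would be missed, and only the longest coding transcript was searched. No member shared annotated exon bases with another annotated gene.

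The 10 genes split by tissue. *S100a8* and *S100a9* had the highest CvP/Epi ratios, 16.1 and 9.11. *S100a1*, *S100a6* and *S100a10* followed with ratios of 3.87, 3.59 and 3.23, and *S100a11* was higher in the CvP by less, at 1.83. *S100a14* and *S100a16* were higher in the Epi, with Epi/CvP ratios of 1.62 and 1.69. For *S100a3* and *S100a4* the interval of the ratio held 1, so that no difference was detectable at this depth. These are levels of whole tissue, where fewer cells of a type and less RNA per cell cannot be told apart.

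**Figure D1:**
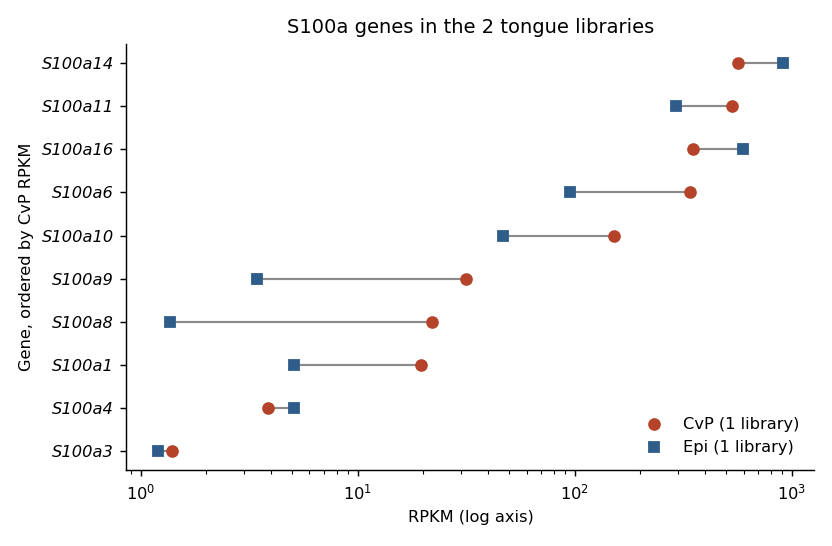
RPKM of the 10 *S100a* genes on a log axis, with the CvP library as circles, the Epi library as squares and genes ordered by CvP RPKM. The members run from 1.39 to 563.78 RPKM in the CvP and from 1.2 to 913.05 in the Epi, and the widest gap between the libraries is that of *S100a8*.

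A CvP/Epi ratio of 2 or more was found for 5 of the 10 members, against 28.3% of the 12549 rows that reached 1 RPKM in either library. No member was 2-fold higher in the Epi, where the share of all rows was 3.76%. The same 5 members passed a stricter limit, more than 10 RPKM in the CvP with a ratio above 3, against 3.47% of the rows, and no member passed it in the opposite direction, against 0.885%. For the 10 members the log2 ratio had a median of 1.28. Over the 10363 rows at 1 RPKM or more in both libraries it was 0.39, and over the 410 rows with a geometric mean of at least 100 RPKM, among which the highest members lie, it was -0.36. In those 410 rows a ratio of 2 or more was reached by 6.1%, *S100a6* among them. The members were proposed with results of these data known, so these counts describe the set and lend it no independent weight.

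**Figure D2:**
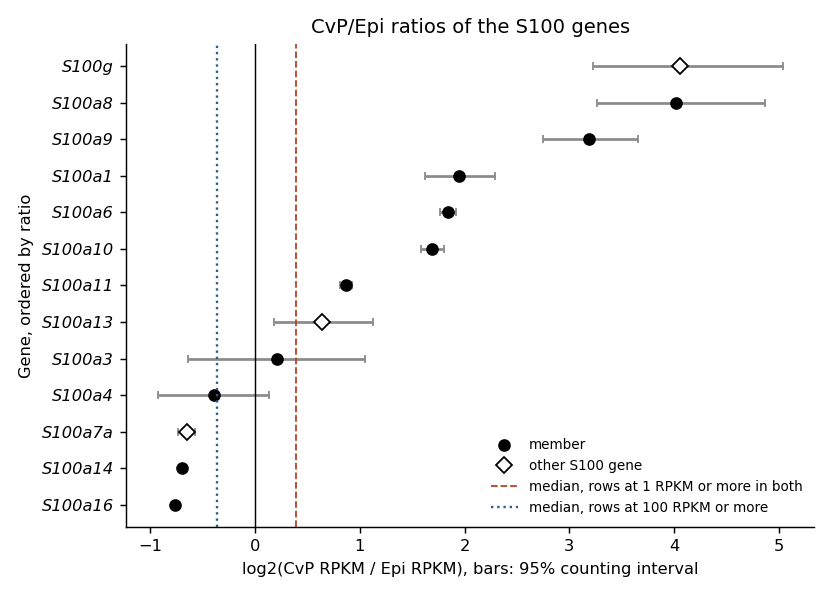
log2 of the CvP/Epi ratio with its 95% counting interval for the 10 members (filled circles) and 3 other S100 genes at 1 RPKM or more (open diamonds), where the dashed line is the median of rows at 1 RPKM or more in both libraries (0.39) and the dotted line that of rows with a geometric mean of at least 100 RPKM (-0.36). *S100a8* and *S100g* lie at the top at 4.01 and 4.06, and *S100a14* and *S100a16* at the bottom at -0.70 and -0.76.

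*S100a8* encodes one chain of calprotectin. It lies at chr3:90472993-90473956 on NCBI37/mm9, with an RPKM of 22.1 in the CvP against 1.37 in the Epi. About 246 and 15 reads stood behind these values, and the ratio of 16.1 had an interval from 9.59 to 29.3. Of the 4640 rows within 2-fold of its geometric mean level and at 1 RPKM or more in both libraries, 99.7% had a lower ratio. That filter left out rows near 0 in the Epi, which can have higher ratios, so the share may be too high. *S100a9*, the other chain, lies at chr3:90496555-90499613 on the opposite strand, 22598 bases further on. It reached 31.4 RPKM in the CvP against 3.45 in the Epi, which gives 9.11 (6.73 to 12.6) from about 435 and 47 reads. Both chains were thus higher in the CvP, and their intervals overlapped. Within a library *S100a9* was the higher of the pair. The quotient of *S100a8* to *S100a9* RPKM was 0.704 in the CvP (interval 0.600 to 0.825) and 0.397 in the Epi (0.206 to 0.723).

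Neutrophils and macrophages are further known sources of both chains, and levels of their markers are given beside them. Of the 10 neutrophil markers with a row 8 had a higher value in the CvP. That direction was shared by 78.1% of all rows at 1 RPKM or more in either library. The 5 that reached 1 RPKM were all at least 2-fold higher in the CvP, against 28.3% of those rows. None of the 5 reached 1 RPKM in the Epi, so their direction was largely set by the filter. The summed RPKM of the list was 12.2 (CvP) and 2.11 (Epi). Its highest genes were *Itgam* (an integrin chain of myeloid cells, 3.58 and 0.8), *Fcgr3* (an antibody receptor, 2.48 and 0.4) and *Csf3r* (the receptor of the granulocyte growth factor, 2.2 and 0.01). The granule genes were at or near 0, with *Elane* listed at 0 in both libraries, *Camp* at 0.12 and 0 and *Ngp* at 0.03 in both. The markers *Ly6g* and *Mpo* were not analysed here. Of the 10 macrophage markers 9 had a higher value in the CvP, and 7 of 7 at 1 RPKM or more were at least 2-fold higher. All of these 7 but *Cd68* reached 1 RPKM in the CvP only, so here too the filter largely set the direction. The list had summed RPKM of 164 (CvP) and 7.36 (Epi). Much of that difference was *Lyz2* (lysozyme, 132 and 0.43), without which the sums were 32.6 and 6.93. Next were *Cd68* (10.8 and 4.45) and the complement gene *C1qb* (6.08 and 0.57). Genes of hyperproliferative keratinocytes were split, 3 of 8 at least 2-fold higher in either tissue. Over all rows at 1 RPKM or more in either library the shares were 28.3% (CvP) and 3.76% (Epi). *Krt17* was at 5134 and 1426, *Krt6a* at 3949 and 7499 and *Krt6b* at 873 and 3681. *Lcn2*, a siderophore-binding defence protein of that list, stood at 8.51 and 0.05. The part of these cells in the levels of *S100a8* and *S100a9* was not tested.

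Receptors to which S100A8 and S100A9 are known to bind were also present. All 8 listed genes had a higher value in the CvP, which also held for 78.1% of the 12549 rows at 1 RPKM or more in either library. Of the 8, 5 reached 1 RPKM in either library, and 3 of these 5 were at least 2-fold higher in the CvP, against 28.3% of those rows. *Cd14*, a co-receptor of the lipopolysaccharide receptor, had an RPKM of 20.4 (CvP) and 0.94 (Epi), or 21.7-fold (15.9 to 31.0). *Alcam*, an adhesion molecule, was at 35.1 and 15.6. *Tlr4*, the lipopolysaccharide receptor itself, was at 5.92 and 5.32, and the interval of 0.997 to 1.24 held 1. *Bsg* (basigin) was the most abundant at 130 and 108, a ratio of 1.2 (1.16 to 1.25). *Ager*, the receptor RAGE, was low in both, at 0.67 and 0.26.

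*S100a6* and *S100a10* were abundant genes of the CvP. *S100a6* (calcyclin; chr3:90416816-90418336) is known from proliferating epithelium. It had 340.82 RPKM in the CvP against 95 in the Epi and a ratio of 3.59 (3.41 to 3.78). Of the 355 rows of like level, 98.3% had a lower ratio. *S100a10* (p11; chr3:93359039-93368567) needs no calcium to bind its partner annexin A2, and its gene is 1 of the 2 without a canonical loop. Its levels were 152 (CvP) and 46.9 (Epi), a ratio of 3.23 (3.001 to 3.49), and 97.4% of 882 rows of like level had a lower one. *S100a11* (chr3:93324418-93330210), which pairs with annexin A1, was at 533 and 292, a ratio of 1.83 (1.76 to 1.90). With the uncertainty of its near copies, 92.1% of 139 rows of like level were below it.

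The annexins bind membranes in a calcium-dependent way, and several are partners of S100 proteins. *Anxa2*, the partner of S100A10, reached 473 RPKM (CvP) and 249 (Epi), a ratio of 1.90 (1.85 to 1.95). The quotient of *S100a10* to *Anxa2* RPKM was 0.321 in the CvP (0.308 to 0.333) and 0.188 in the Epi (0.176 to 0.202), so that the S100 partner differed more between tissues than the annexin. The opposite held for *S100a11* and *Anxa1*. *Anxa1* reached 2835 RPKM (CvP) and 174 (Epi), a ratio of 16.3 (15.9 to 16.6), and the quotient of *S100a11* to *Anxa1* was 0.188 (CvP) and 1.67 (Epi). *Cacybp*, which encodes a binding protein of calcyclin, was at 18.6 and 22.1, and *Sugt1*, a related partner, at 14.9 and 15.7 (interval of the ratio 0.860 to 1.04). *Myh9*, the myosin heavy chain that S100A4 binds, had 56.3 and 26.5. Of the 10 partner genes at 1 RPKM or more, 4 (*Anxa1*, *Anxa6*, *Anxa11* and *Myh9*) had a CvP/Epi ratio of 2 or more, while 0 had an Epi/CvP ratio of 2 or more. Over the 12549 rows at 1 RPKM or more in either library these shares were 28.3% and 3.76%, so the counts single out no trait of the partners. *Anxa5* had 117 and 82.3. *Tgm1*, the transglutaminase that cross-links the cornified envelope, had 145 and 201. *Ahnak*, a scaffold that binds S100A10 and annexin A2, was also higher in the Epi, at 135 and 226.

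*S100a1*, best known from heart and skeletal muscle, where its protein tunes calcium release, lies at chr3:90314956-90318252 on the minus strand. It stood at 19.6 RPKM (CvP) and 5.07 (Epi), a ratio of 3.87 (3.08 to 4.88), and 96.98% of 4696 rows of like level had a lower ratio. Skeletal muscle markers lay on the other side. All 9 listed genes, 8 of them at 1 RPKM or more in either library, were at least 2-fold higher in the Epi. Over the 12549 rows at that level the share was 3.76%. Most of the 8 reached 1 RPKM in the Epi only, so the filter largely set their direction. The summed RPKM of the list was 68.7 in the Epi against 7.69 in the CvP. Its highest genes were *Acta1* (skeletal actin, 0.86 and 12.9), *Tnni2* (2.53 and 12.3) and *Ckm* (0.67 and 10.6). The part of muscle in the level of *S100a1* was not tested.

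*S100a14* and *S100a16*, both abundant in squamous epithelium, were the members whose ratio lay toward the Epi beyond counting error. *S100a14* (chr3:90330771-90332757) had the highest RPKM of the family in both libraries, 564 (CvP) and 913 (Epi). Its Epi/CvP ratio was 1.62 (1.59 to 1.65), from at least about 17376 CvP and 27679 Epi reads. *S100a16* (chr3:90345145-90347073), 12387 bases further on, had 351 and 594, an Epi/CvP ratio of 1.69 (1.65 to 1.73). The quotient of *S100a14* to *S100a16* was 1.61 (1.57 to 1.65) for the CvP and 1.54 (1.51 to 1.57) for the Epi. It depends on the gene lengths listed with the RPKM. With all reads set against the annotated transcript, *S100a16* was the higher, at 1876 against 1447 in the CvP and 3176 against 2344 in the Epi. Highly expressed rows as a whole lay toward the Epi, and both genes were ordinary among them, with 31.3% of the 83 rows of like level below the CvP/Epi ratio of *S100a14* and 24.4% of 119 below that of *S100a16*.

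*S100a4* and *S100a3* were the lowest members in the CvP. *S100a4* (chr3:90407692-90409967), a gene of fibroblasts and leukocytes, was at 3.88 (CvP) and 5.1 (Epi), a ratio of 0.761 (0.526 to 1.10) from about 55 and 71 reads. The fibroblast markers were low or mixed. The collagen genes *Col1a1*, *Col1a2* and *Col3a1* were at 0.25 RPKM or less in both libraries, *Vim* (vimentin) at 3.99 and 2.79, *Pdgfra* at 1.3 and 0.07, and *Dcn* (decorin) at 26.1 and 128. The part of fibroblasts in the level of *S100a4* was not tested. *S100a3* (chr3:90404137-90406624), known from the hair cuticle, was at 1.39 and 1.2, a ratio of 1.16 (0.641 to 2.07) from about 28 and 24 reads, and with the ratios divided by the median or trimmed mean ratio of the 10363 rows at 1 RPKM or more in both libraries it lay below 1. Hard keratins of hair and filiform papillae did differ. Of the 12 listed keratins 5 reached 1 RPKM and all 5 were at least 2-fold higher in the Epi. Over all rows at 1 RPKM or more in either library the share was 3.76%. Among the 5 were *Krt84* (2.88 and 396), *Krt36* (1.88 and 250) and *Krt32* (21.5 and 44.5). *Krt35* (0.62 and 9.28) reached 1 RPKM in the Epi only. *Padi3*, whose enzyme modifies S100A3 in the hair cuticle, was at 0.05 and 0.22.

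**Figure D3:**
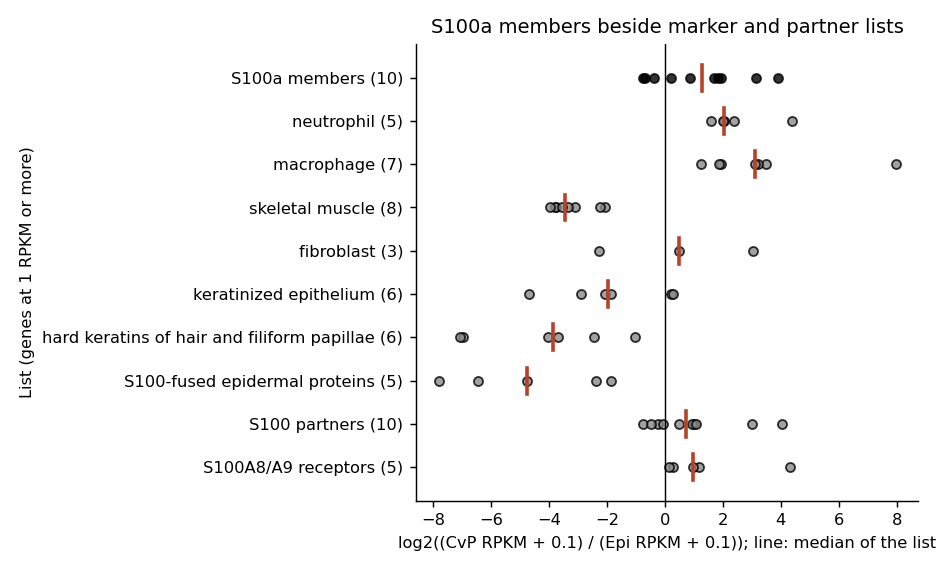
log2 ratio with a pseudocount of 0.1 RPKM for each gene at 1 RPKM or more in either library, for the *S100a* members and 9 lists of marker, partner and receptor genes, with the number of genes in brackets and the median as a vertical line. The members spread on both sides of 0, the neutrophil and macrophage genes shown lie above it, and the skeletal muscle, hard keratin (5 keratins and the homeobox gene *Hoxc13*) and S100-fused genes below it. A gene that reached 1 RPKM in only 1 library is shown because of that library, which favours its side.

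The order of the members by RPKM differed between the tissues. In the CvP it ran *S100a14*, *S100a11*, *S100a16*, *S100a6*, *S100a10*, *S100a9*, *S100a8*, *S100a1*, *S100a4* and *S100a3*. In the Epi it ran *S100a14*, *S100a16*, *S100a11*, *S100a6*, *S100a10*, *S100a4*, *S100a1*, *S100a9*, *S100a8* and *S100a3*. Neighbours whose quotient had an interval that held 1 were *S100a16* and *S100a6* (1.03) and *S100a8* and *S100a1* (1.13) in the CvP, and *S100a4* and *S100a1* (1.01) and *S100a8* and *S100a3* (1.14) in the Epi. The summed RPKM of the members was nearly level, 2019 (CvP) and 1957 (Epi), but it was spread over more genes in the CvP. The 2 highest members held 54.3% of it there and 77.0% in the Epi.

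These levels rest on a length that differs from the annotated transcript for 5 of the 10 genes. The listed length was more than 1.2 times the longest coding transcript in 5 members, by 10.6 times in *S100a10* (7.246 kb against 0.685), 5.35 times in *S100a16*, 4.03 times in *S100a1*, 2.57 times in *S100a14* and 2.30 times in *S100a6*. For *S100a16*, *S100a14* and *S100a6* it exceeded even the span of the row from start to end, which was 1929, 1987 and 1521 bases. In the other 5 members the lengths agree within 1.2 times. The ratio between the tissues uses the same length on both sides, but levels and quotients compared between genes do not. If all reads of a row are set against its annotated transcript, the order in the CvP becomes *S100a16* (1876 on the scale of RPKM), *S100a10* (1605), *S100a14* (1447), *S100a6* (785) and *S100a11* (526). This is an upper bound for the extended genes, since reads outside the transcript are included. Over all rows the extension was larger in more abundant genes, with a median of 1 in rows of at most 1 CvP RPKM and of 2.32 in rows above 100.

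**Figure D4:**
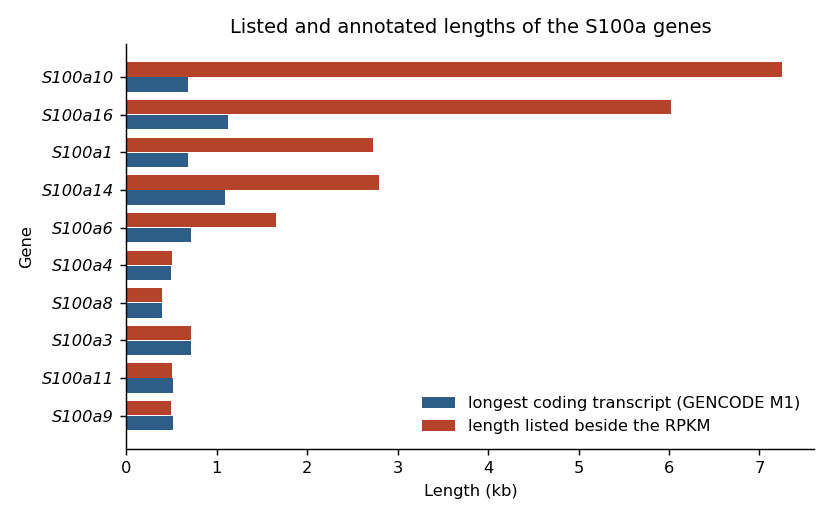
Length in kb of the longest coding GENCODE M1 transcript and the length listed beside the RPKM, for each of the 10 genes. In *S100a10*, *S100a16*, *S100a1*, *S100a14* and *S100a6* the listed length is longer, by 2.30 to 10.6 times, and in the other 5 the bars are of nearly the same length.

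All 10 members lie on chromosome 3, in a pair of groups. The first, from *S100a1* to *S100a9*, holds 8 members in 184658 bases, and the second holds *S100a11* and *S100a10*, 2824804 bases further on. Position did not sort them by tissue. *S100a14* and *S100a16*, higher in the Epi, lie between *S100a1* and *S100a6*, which were higher in the CvP. *S100a7a*, an S100 gene of inflamed skin that ends 10940 bases before *S100a8*, was higher in the Epi (99.5 and 156, an Epi/CvP ratio of 1.57 with an interval from 1.49 to 1.66), while *S100a8* itself was higher in the CvP.

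Between the groups 58 rows of the epidermal differentiation complex are listed, and here the families differed. The late cornified envelope genes (*Lce*) all had a higher value in the Epi, 13 of 17 rows by 2-fold or more. Over the 12549 rows at 1 RPKM or more in either library, 3.76% were at least 2-fold higher in the Epi and 28.3% in the CvP. These shares also stand beside the counts that follow. Of the 17 *Sprr* rows (small proline-rich proteins, some of them near copies of each other) 9 had a CvP/Epi ratio of 2 or more, 4 of them *Sprr2a1* and *Sprr2a2* listed at the same places and 1 *Sprr4* at 0.16 and 0, and 2 an Epi/CvP ratio of 2 or more. The S100-fused proteins, which join an S100 domain to a long repeat and build the cornified layer, had a row for 6 genes, of which 5 reached 1 RPKM and all 5 were at least 2-fold higher in the Epi. *Rptn* (repetin) was at 1468 (CvP) and 5290 (Epi), *Hrnr* (hornerin) at 339 and 1753, *Tchh* (trichohyalin) at 5.06 and 1156, *Crnn* (cornulin) at 26.2 and 719 and *Tchhl1* at 0.02 and 10.4. *Tchhl1* reached 1 RPKM in the Epi only, so the filter favoured its direction. Among the 10 *S100a* members the highest Epi/CvP ratio was the 1.69 of *S100a16*. The keratinized epithelium list had 4 of 6 genes at 1 RPKM or more at least 2-fold higher in the Epi, with summed RPKM of 2838 and 15718, with *Krt76* at 217 and 5649 and *Lor* (loricrin) at 1052 and 4379, and its part in the S100 levels was not tested.

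**Figure D5:**
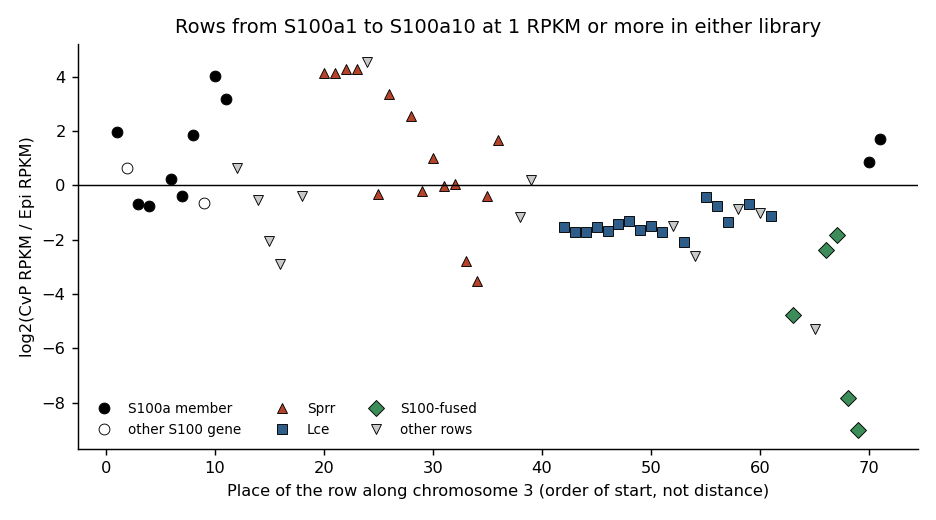
log2 CvP/Epi ratio of the rows from *S100a1* to *S100a10* on chromosome 3 at 1 RPKM or more in either library, in order of their start (place in the order, not distance), with symbols for each gene family. The *S100a* members at both ends lie on either side of 0, most *Sprr* rows at or above 0, and the *Lce* and S100-fused rows below it.

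Promoters were compared as a description. RefSeq promoter windows of 250 bases before to 50 after a start (GRCm38.p6) were at hand for 8 members, in 12 windows, and were missing for *S100a10* and *S100a14*. The letters TATAAA, on either strand, were in 4 of the 12 windows, 1 each of *S100a3*, *S100a4*, *S100a8* and *S100a9*, and in 13.6% of all 32851 windows. In *S100a8* and *S100a4* they begin 30 and 31 bases before the RefSeq start. In *S100a9* they begin at the RefSeq start itself, next to position 90499644 on NCBI37/mm9. The row of *S100a9*, on the minus strand, begins only at 90499613, so by the row they lie before the start. In 1 of the 4 windows of *S100a3* they begin 52 bases before the RefSeq start. That window (chr3:90392425-90392484) lies far before its row, which starts at 90404137. The letters TGANTCA, the core of an AP-1 site, were in 2 of the 12 windows, 1 each of *S100a11* and *S100a16*, and in 7.81% of all windows. The 60 bases before the start of *S100a8* and *S100a4* are shown. By the RefSeq start these are the 2 members with TATAAA nearest to the usual place of a TATA box. TATAAA is in capitals, and the place where the bases were found on NCBI37/mm9 is given.
S100a8 (chr3:90472933-90472992, plus strand): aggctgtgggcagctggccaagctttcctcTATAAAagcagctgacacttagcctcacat
S100a4 (chr3:90407632-90407691, plus strand): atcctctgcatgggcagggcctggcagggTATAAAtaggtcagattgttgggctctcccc

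The rows most like the highest members were found by the distance of log2(RPKM + 0.1) over the 2 libraries, which is a short basis. Nearest to *S100a14* were the ribosomal protein genes *Rplp0* (577 and 896, distance 0.04) and *Rpl4* (653 and 852). *S100a11* had *Cd9*, a tetraspanin, at 598 and 313 (distance 0.19) and its family's annexin partner *Anxa2* (distance 0.29). For *S100a16* they were *P4hb* (346 and 544) and *Rps4x* (357 and 543). As a check of the labels, the type I taste cell genes were split (*Entpd2* at 54.8 and 4.53, *Slc1a3* at 1.04 and 3.82). At least 2-fold higher in the CvP were 5 of 6 genes of type II taste cells and all 5 of type III taste cells. Their summed RPKM was 310 against 26.3 and 43.1 against 0.03. Over all rows at 1 RPKM or more in either library the share was 28.3%. Most of these type II and III genes reached 1 RPKM in the CvP only.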

How the data were processed

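The authors sequenced 1 poly(A) library per tissue (TruSeq, single reads of 75 bases), mapped it with Bowtie (0.12.7 in the submitters' processing notes) to NCBI37/mm9 and deposited RPKM values per exon model from ERANGE, with a gene length. Strand-specific counting and the treatment of reads with several places are not given in the sources used here. The ratio column of the authors was not used. Rows were taken by symbol. The members, lists and rules were chosen with earlier results of these data known. Mapped reads were estimated from the step of RPKM in the 163 rows of 0.1 kb. In short rows whose listed length exceeded the transcript, 86.1% of 36 values were whole reads (within 0.15) by the listed length and 44.4% by the transcript. Reads per gene used the shorter of both lengths, a lower bound where the listed one is longer, and a ratio got an exact (Clopper-Pearson) 95% interval. Lists were counted over the rows at 1 RPKM or more in either library unless all listed genes or rows are named. Rows of like level were those within 2-fold of the geometric mean RPKM of a gene and at 1 RPKM or more in both libraries. Genes were named by rule: all S100 genes, the fused, partner, receptor and hard keratin genes at 10 RPKM or more, up to 3 of each other list by RPKM, and the 2 rows nearest to each of the 3 members highest in the CvP. The rule also covered chromosome neighbours at 10 RPKM or more, but most of these are not named. Outside the rule and named after their values were seen are *Padi3*, *Ager*, *Tlr4*, *Lcn2*, *Elane*, *Camp*, *Ngp*, *Hoxc13*, *Krt35*, *Sprr4* and the collagen genes. Near copies were sought with blastn 2.17.0, at 75 bases and 97% identity. Intervals and depth estimates were tested on simulated data. Alternatives changed the pseudocount (0.1 or 1), scaling, fold, filter and length. Python 3.11.15, numpy 2.4.6, pandas 2.3.3, scipy 1.17.1, Biopython 1.88 and matplotlib 3.10.9 were used. No protein sequences were used.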

Additional observations from a re-analysis of the deposited data

How the results depend on the processing

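No paired analysis was possible because the design holds a single library for either tissue, with no numbered replicates. Of the 10 members, 9 kept the direction of their ratio in all 6 settings of pseudocount and scaling, and *S100a3* did not (lowest 0.879, highest 1.49). *S100a8* ranged from 9.76 to 20.8 and *S100a16* from 0.448 to 0.759. The scalings shifted log2 ratios by -0.39 (median ratio), -0.40 (trimmed mean ratio), 0.27 (sum of 1000000) and 0.36 (median of rows at 100 RPKM or more), and moved the members' median log2 ratio from 1.28 to 0.89, 0.88, 1.55 and 1.64. Over the 15 S100 genes with an Epi RPKM above 0 it was 1.69. The 5 members at least 2-fold higher in the CvP became 6 in the 2 last scalings and at a fold of 1.5, where *S100a11* passes. The 0 members at least 2-fold higher in the Epi became 2 at a fold of 1.5 and divided by the median or trimmed mean ratio, *S100a14* and *S100a16*. The number of members whose counting interval lies off 1 was 8 by each length. By reads in place of RPKM, 6 members kept their place in the order in both libraries, and per annotated transcript kilobase, an alternative chosen after seeing the data, 3 did. The members' share of the summed CvP RPKM, 0.592%, was 0.323% of reads by the listed length, 0.689% without the 10 highest rows and 0.792% per annotated kilobase. In the Epi it was 0.476%, and 0.340% to 0.647% under these. Depth limited *S100a3*, *S100a4* and the Epi values of *S100a8* and *S100a9*, which rest on 15 to 71 reads.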

Other observations

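Calcium sensors outside the S100A group were looked at in the same way. *S100g* (calbindin-D9k, a calcium buffer of gut and kidney; chromosome X, 159399924 to 159402531) stood at 14.98 RPKM (CvP) and 0.9 (Epi), a ratio of 16.6 (95% counting interval 9.37 to 32.9), beside 16.1 for *S100a8*. Of 4010 rows of like level, 99.8% had a lower ratio. Those rows held 1 RPKM or more in both libraries, a filter that *S100g* itself fails. Rows as low in the Epi were left out, so this share was largely set by the filter. *S100a13* was at 5.01 and 3.21, a ratio of 1.56 (1.14 to 2.18). *S100b*, the classical marker of Schwann cells, was at 0.13 and 0.02, *S100a2* at 0.45 and 0.11 and *S100z* at 0.24 and 0, each with 5 or fewer reads in either library.

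Among 15 other EF-hand genes with a row, 14 reached 1 RPKM, of which 5 were at least 2-fold higher in the CvP, and 2 were in the Epi. Over the 12549 rows at 1 RPKM or more in either library the shares were 28.3% and 3.76%. *Capns1*, the small calpain subunit, had the largest ratio of these, 5.20 (4.87 to 5.54), at 135 and 26.0. The myosin light chain gene *Myl6* was at 169 and 152 (1.05 to 1.16). *Calml3*, a calmodulin of stratified epithelium, was the most abundant at 864 and 1214, a CvP/Epi ratio of 0.711 (0.702 to 0.721), beside 0.617 for *S100a14* and 0.590 for *S100a16*.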
